A study of Mus musculus with 20 samples.

Results

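Imprinted growth genes are genes that are expressed mainly from the copy inherited from 1 parent and that act on growth of the body, the placenta or particular tissues. The 10 followed here were chosen by symbol: H19, Igf2, Meg3, Peg3, Dlk1, Cdkn1c, Mest, Plagl1, Nnat and Grb10. This choice, and that of the gene lists used further on, was made with earlier results of these data known. All 10 are listed among the 24826 gene rows of the deposited expression table, each under a symbol that occurs once. They were followed in 20 bulk RNA sequencing libraries from 10 mouse tissues: brain, heart, lung, liver, kidney, intestine, spleen, thymus, uterus and ovary.

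Each tissue gave 1 library from mice given DHEA (dehydroepiandrosterone, an adrenal precursor of androgens and oestrogens) and 1 from control mice, whose labels read "sasame oil", read here as sesame oil, a common carrier for steroids. The labels call all of the animals wild type, so no group carries an engineered allele. The dose, the length of treatment, the strain and age of the animals, the number of animals behind a library, the stage of the oestrous cycle and the parts of brain, heart and intestine that were sampled are missing from the labels. The uterus is labelled "Utery", and the sample descriptions also carry the words "10x Genomics" although the series is described as bulk. With 1 library per tissue and treatment, a DHEA difference within a tissue compares a pair of libraries and has no replicate error. Markers of each labelled tissue were highest in both libraries of that tissue, for all 10 tissues. The reads recovered from the FPKM values over the listed gene rows ran from 13206931 to 20704361 per library. In bulk tissue, fewer cells that express a gene cannot be told apart from less RNA of that gene per cell.

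Imprinted genes lie in clusters in which a stretch of DNA methylated on 1 parental copy sets which genes are active on that copy. H19 (a long non-coding RNA) and Igf2 (insulin-like growth factor 2) share such a cluster and are expressed from opposite parental copies, as are Meg3 (a long non-coding RNA) and Dlk1 (a transmembrane protein related to Notch ligands). Genes expressed from the paternal copy, such as Igf2, Mest, Peg3 and Plagl1, often favour growth, and several expressed from the maternal copy, such as Cdkn1c and H19, often restrain it. After birth many of these genes are switched down in most organs, and brain and endocrine tissues are among the places where expression is known to continue.

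The promoters of 3 members are shown because they are the members with both a DHEA difference called further on and a matched promoter window: Mest and Nnat were lower in the uterus library of the DHEA group, and Meg3 was higher in the brain and ovary libraries. RefSeq promoter windows (build GRCm38.p6) were found for 8 of the 10 members, with 15 windows between them, and H19 and Cdkn1c were not matched. Each sequence below is the 250 bases before an annotated start, written 5′ to 3′ on the plus strand, and capitals mark a GC box (GGGCGG or CCGCCC, a motif bound by SP-family factors). The windows lie at chr2:157559828-157560077 for Nnat, chr6:30733256-30733505 for Mest and chr12:109540746-109540995 for Meg3.
Nnat: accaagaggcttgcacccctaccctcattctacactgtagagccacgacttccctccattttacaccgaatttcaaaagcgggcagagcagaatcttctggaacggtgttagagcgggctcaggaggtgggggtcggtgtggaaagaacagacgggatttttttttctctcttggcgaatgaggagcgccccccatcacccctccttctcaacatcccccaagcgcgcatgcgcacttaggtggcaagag
Mest: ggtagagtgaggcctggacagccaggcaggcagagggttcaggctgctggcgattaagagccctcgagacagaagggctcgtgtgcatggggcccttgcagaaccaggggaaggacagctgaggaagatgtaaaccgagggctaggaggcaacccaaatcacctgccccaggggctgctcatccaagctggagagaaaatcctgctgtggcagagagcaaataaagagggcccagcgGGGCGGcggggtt
Meg3: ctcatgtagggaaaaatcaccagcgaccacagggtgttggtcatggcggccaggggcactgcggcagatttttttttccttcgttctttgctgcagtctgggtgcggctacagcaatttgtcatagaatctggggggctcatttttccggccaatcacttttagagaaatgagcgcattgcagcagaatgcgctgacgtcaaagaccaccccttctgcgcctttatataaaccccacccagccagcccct
The Nnat window holds 12 CpG dinucleotides, the Meg3 window shown 10 and the Mest window shown 7, against a median of 6 over all 32851 windows of 27025 genes. The other Mest windows, which overlap almost fully and are counted separately, hold 14 each, and the other Meg3 window 0. A GC box was found in 7 of the 15 member windows and in 32.7% of all windows. The TATA motif TATAAA, read on both strands, was found in 1 member window, the Meg3 window shown, and in 12.4% of all windows. The oestrogen response element GGTCANNNTGACC was in 0 of the 15 member windows and 0.0639% of all windows, and the androgen response element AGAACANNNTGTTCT in 0 and 0.00913%. These matches describe letters in a short window only.

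Baseline levels are given first, as FPKM (fragments scaled to gene length and library size), which allows comparison between genes. The FPKM sum of a library ran from 236762 in DHEA brain to 460290 in control intestine, so comparisons between tissues depend partly on scaling. Over the 20 libraries the members spanned a wide range. Nnat reached 112 FPKM and Meg3 77.5 FPKM in brain, H19 31.8 FPKM in heart, Peg3 27.8 FPKM in brain, Cdkn1c 24.6 FPKM in lung, Grb10 20.8 FPKM in uterus and Plagl1 17.0 FPKM in ovary. Mest peaked at 9.61 FPKM in uterus and Dlk1 at 5.86 FPKM in brain. Igf2 did not exceed 0.585 FPKM in any library.

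**Figure D1:**
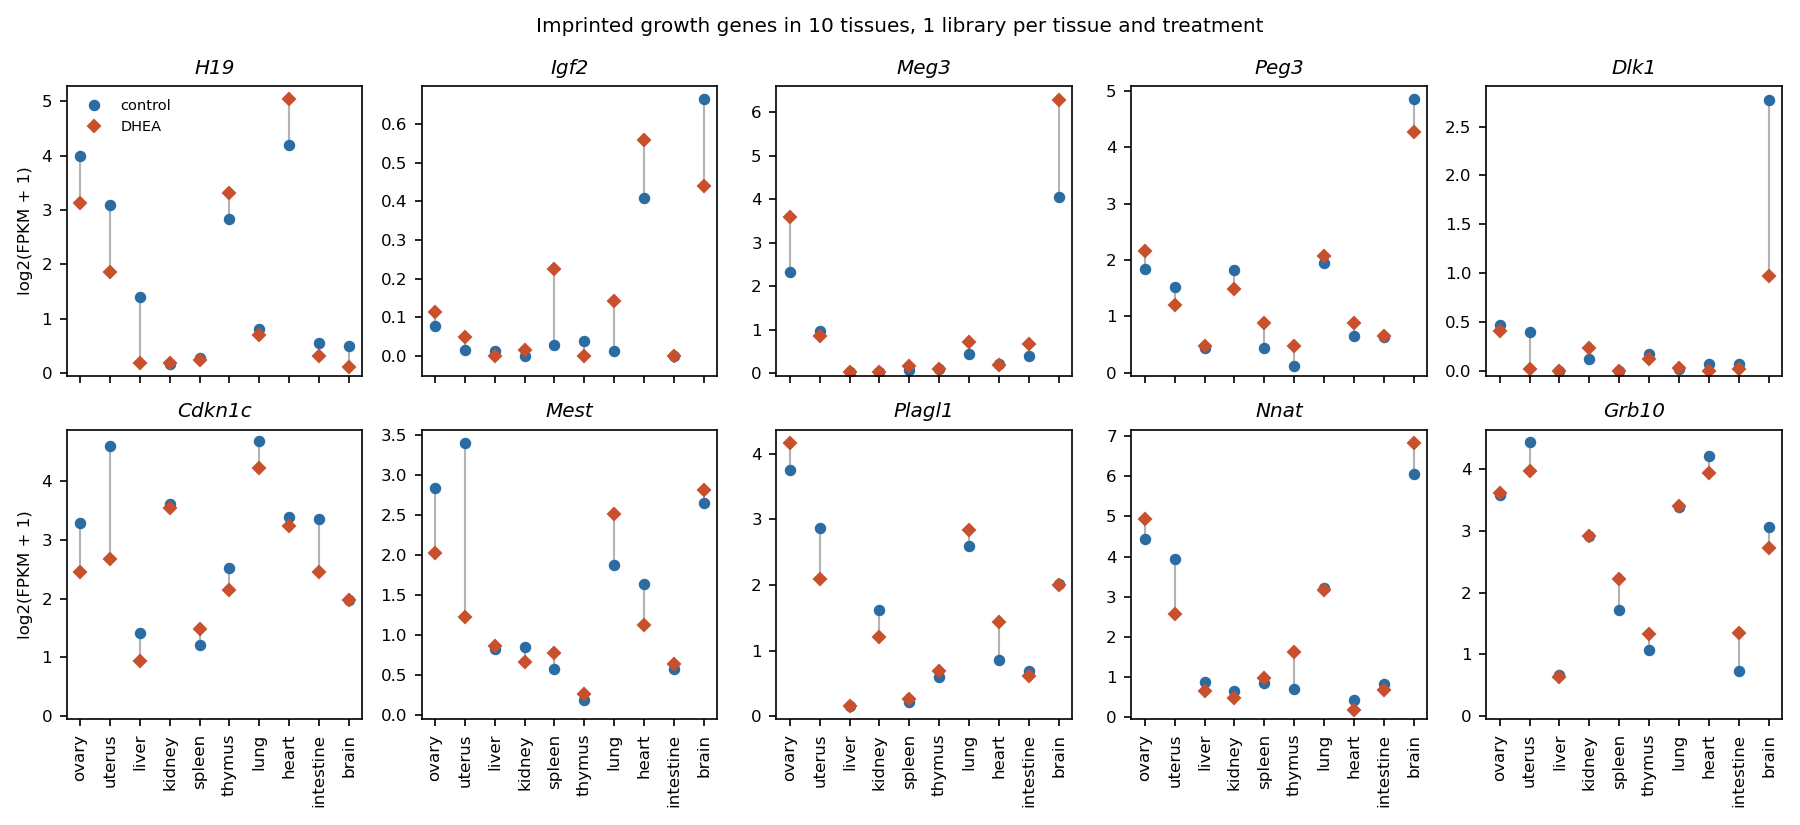
Level of each of the 10 genes, as log2(FPKM + 1) on axes scaled separately for each gene, in 10 tissues. Circles are the control library and diamonds the DHEA library of a tissue, joined by a line; Meg3, Peg3, Dlk1 and Nnat stand highest in brain, H19 in heart, Plagl1 in ovary, and Cdkn1c and Grb10 are spread over many tissues.

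The ligand Igf2, a growth factor that acts through the IGF1 receptor, was close to absent in these tissues. It had 70 and 34 reads in the control and DHEA brain libraries (0.585 and 0.357 FPKM) and 33 and 42 reads in the heart libraries (0.328 and 0.472 FPKM). Of all 20 libraries, 5 held no Igf2 read, and 3 reads over the library is the upper limit that a count of 0 allows. Brain and heart overlapped in their ranges, and both lay above the other 8 tissues. Mir483, a microRNA gene inside Igf2, never exceeded 1 read, and Igf2os, the antisense transcript, never exceeded 0.152 FPKM; the strand setting of the counting is not given, so reads of Igf2 and Igf2os cannot be told apart.

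H19, the non-coding partner of Igf2, was far higher than Igf2 in heart, ovary, thymus and uterus and was spread differently. In brain H19 had 0.408 FPKM in the control and 0.0733 in the DHEA library, below Igf2 in both. It stood at 17.4 FPKM in the control and 31.8 in the DHEA heart library, 14.9 and 7.69 in ovary, 6.15 and 8.92 in thymus, and 7.48 and 2.60 in uterus. The other 6 tissues stayed at or below 1.65 FPKM in both libraries. Heart held 48.3% of the H19 signal summed over tissue means. The heart range did not overlap that of ovary, whereas ovary overlapped thymus and thymus overlapped uterus. Across the 10 tissue means, the Pearson correlation of H19 with Igf2 on the log2(FPKM + 1) scale was 0.22.

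Meg3 and Dlk1, which share a cluster, were both brain genes here. Meg3 had 15.6 FPKM in the control and 77.5 in the DHEA brain library, 3.996 and 11.2 in ovary, and less than 1 FPKM in all other tissues. Brain held 82.6% of the Meg3 signal summed over tissue means, and neither brain and ovary nor ovary and uterus overlapped. Dlk1 had 5.86 FPKM in the control and 0.956 in the DHEA brain library, 0.378 and 0.330 in ovary, and 0.320 FPKM or less elsewhere, with brain holding 80.5%. Mirg, a microRNA host transcript downstream of Meg3, had 0.905 and 1.66 FPKM in brain and correlated with Meg3 at 0.99 over the 10 tissue means. Rtl1, which overlaps Meg3 in the annotation, reached 0.643 FPKM at most.

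Peg3, a zinc finger protein gene, and Nnat, which encodes the membrane proteolipid neuronatin, were also highest in brain. Peg3 had 27.8 FPKM in the control and 18.4 in the DHEA brain library, and lung (2.84 and 3.20) and ovary (2.59 and 3.45) followed with overlapping ranges. Brain held 65.3% of the Peg3 signal. Nnat had 65.5 and 112 FPKM in brain, 20.5 and 29.4 in ovary, 14.3 and 4.94 in uterus, and 8.31 and 8.02 in lung, with 65.4% in brain. The brain and ovary ranges of Nnat were separate from each other and from the tissues below them, and uterus and lung overlapped. Nnat lies within another gene, Blcap, in the annotation, whose levels are given with the neighbouring genes further on.

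Plagl1, a zinc finger transcription factor gene, was an ovary gene in these libraries, with 12.6 FPKM in the control and 17.0 in the DHEA library. Lung (5.06 and 6.18) and uterus (6.31 and 3.26) followed with overlapping ranges, and ovary held 45.4% of the signal. Mest, which encodes a protein of the alpha/beta hydrolase fold, had 5.29 and 6.05 FPKM in brain, 9.61 and 1.34 in uterus, 6.19 and 3.07 in ovary, and 2.67 and 4.74 in lung. The ranges of brain, uterus and ovary overlapped, so no single tissue led for Mest.

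Cdkn1c and Grb10, both brakes on growth, were the most widely expressed members, each averaging 5 FPKM or more in the libraries of 6 tissues. Cdkn1c encodes the cyclin-dependent kinase inhibitor p57, and Grb10 an adaptor that binds insulin and IGF1 receptors. Cdkn1c ran from 24.6 and 17.7 FPKM in lung through 23.1 and 5.34 in uterus and 11.2 and 10.6 in kidney down to 1.66 and 0.912 in liver. Lung and uterus overlapped, and heart, intestine and ovary overlapped in turn. Grb10 ran from 20.8 and 14.6 FPKM in uterus and 17.4 and 14.3 in heart to 0.589 and 0.550 in liver, and uterus and heart overlapped. Liver was the lowest tissue for Cdkn1c, Plagl1 and Grb10.

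Whether the members differed between tissues was tested with limma on log2(FPKM + 1), with treatment as a covariate, over the 14833 genes that averaged 1 FPKM or more across libraries. The spread in this fit comes from the 2 libraries of each tissue, 1 of each treatment. It is not a spread between animals of the same treatment, and DHEA differences particular to a tissue count as error. Igf2 and Dlk1 fell below that mean, so 8 of the 10 members were tested. All 8 differed between tissues at an adjusted p (Benjamini-Hochberg) under 0.05, as did 98.9% of all genes tested, so the share among members is near the background. Adjusted p ranged from 9.72e-08 for Grb10 to 0.0017 for Mest.

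The gap between the tissue with the highest mean log2 level and the next is described in the same fit; the highest tissue was picked from the same values. The gap passed an adjusted p of 0.05 in 5 of 8 members, beside 41.1% of all genes. Peg3 was 2.56 higher in brain than in lung on the log2(FPKM + 1) scale (SE 0.24, adjusted p 2.03e-06), Meg3 was 2.21 higher in brain than in ovary (SE 0.48, adjusted p 0.00174), and Nnat was 1.76 higher in brain than in ovary (SE 0.41, adjusted p 0.00277). Plagl1 was 1.24 higher in ovary than in lung (SE 0.27, adjusted p 0.00298). H19 was 1.07 higher in heart than in ovary (SE 0.43, adjusted p 0.0484), a call that was lost with a pseudocount of 0.1 FPKM (adjusted p 0.186), with libraries scaled to the same FPKM sum (0.161), with limma-voom on reads (0.0844) and with no filter on low values (0.0794). It was also lost without the brain, intestine, kidney, lung or spleen pair (adjusted p 0.0587 to 0.0613), and not without the liver, thymus or uterus pair. Cdkn1c in lung against uterus (adjusted p 0.156), Mest in brain against ovary (0.646) and Grb10 in uterus against heart (0.685) did not pass. Without the uterus pair, kidney came next after lung for Cdkn1c and that gap passed (adjusted p 0.0134).

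The genes whose tissue pattern was most like each member were taken as the 3 with the highest Pearson correlation over the 10 tissue means of log2(FPKM + 1), among genes that averaged 1 FPKM or more. For the brain genes these correlations were high. They were Nap1l2 (0.99), Bcan (0.99) and Kcnab1 (0.99) for Meg3, Rnft2, Gpr37 and Gabra4 (0.996 each) for Dlk1, and Map9, Sgtb and Plcb1 (0.98 each) for Peg3. Fzd3, Map1b and Il4 (0.97 each) came first for Nnat. Gal3st3, Lingo3 and Klhl34 (0.98 each) came first for Igf2, which is not a brain gene alone, since its brain and heart ranges overlapped. The Igf2 correlations rest on values near the floor, at most 0.585 FPKM with 5 libraries at 0 reads. Plagl1 followed Pde7b, Unc13b and Rab18 (0.98 each), and Mest followed Pcdhb20, Acvr1 and Zfp532 (0.97 each). Cdkn1c was closest to Syde2 (0.97), Uaca (0.95) and Sox13 (0.94), and Grb10 to 2310022B05Rik (0.96), Lamb2 (0.95) and Lama2 (0.95), the last a pair of laminin chain genes. H19 had the weakest matches, Plin4 (0.91), Mmadhc (0.89) and Trmt5 (0.89), all highest in heart.

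Among the members themselves, the 45 pairwise correlations over tissue means ran from -0.25 to 0.93, with a median of 0.44. The highest joined Meg3 with Dlk1 (0.93), Meg3 with Nnat (0.92) and Peg3 with Dlk1 (0.91). These are descriptions over 10 tissues that share the same libraries, and a gene that is high in brain alone will correlate with any other such gene.

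For the DHEA comparison, a gene was called in a tissue where the ratio of (FPKM + 1) between the DHEA and the control library reached 2-fold and the mean of the pair was at least 5 FPKM. Of the 100 combinations of member and tissue, 27 reached a pair mean of 5 FPKM; Igf2 and Dlk1 gave none. Of the 27, 2 were higher and 4 lower in DHEA. Over all genes, 3.75% of 71276 combinations were higher and 2.79% lower. Both of the higher ones were Meg3, in brain and in ovary, and all 4 lower ones lay in the uterus: Mest, Cdkn1c, Nnat and H19. Without the uterus pair the count of lower calls was 0, and without the brain or the ovary pair the count of higher calls was 1, alternatives chosen after the data were seen.

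**Figure D2:**
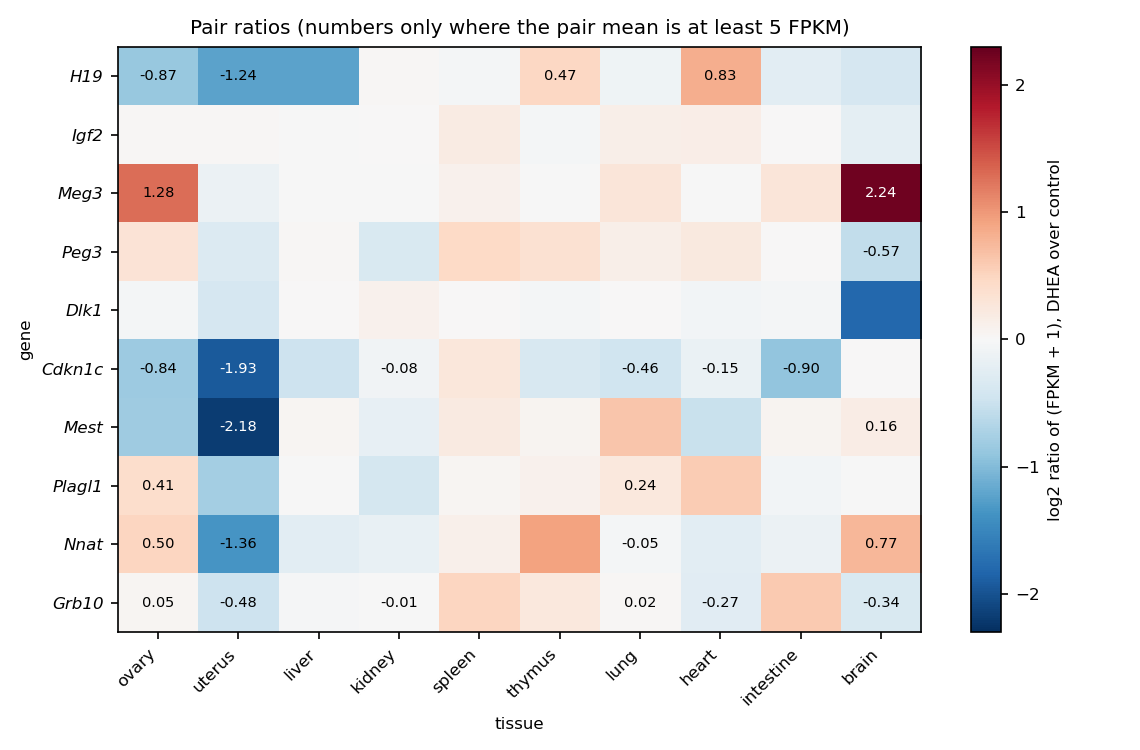
Log2 ratio of (FPKM + 1), DHEA over control, for each gene (rows) in each tissue (columns), with red for higher and blue for lower in the DHEA library. Numbers stand where the pair mean is at least 5 FPKM; the darkest cells are Meg3 in brain at 2.24 and Mest in uterus at -2.18.

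In the uterus, 5 members reached a pair mean of 5 FPKM, and 4 of these were at least 2-fold lower in the DHEA library. The background was large in this tissue, with 10.1% of 7965 genes lower and 7.85% higher. The median log2 ratio of the 5 members was -1.36, and that of all genes was -0.12. Mest had 9.61 FPKM (608 reads) in the control and 1.34 FPKM (108 reads) in the DHEA library, 7.19-fold lower with a 95% counting interval of 5.85 to 8.90. Cdkn1c went from 23.1 to 5.34 FPKM, 4.32-fold lower (3.72 to 5.04). Nnat went from 14.3 to 4.94 FPKM, 2.88-fold lower (2.42 to 3.45).

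H19 went from 7.48 to 2.60 FPKM in the uterus, 2.87-fold lower (2.33 to 3.56); its pair mean of 5.04 FPKM lay just inside the filter. Plagl1 lay just outside, with a pair mean of 4.78 FPKM, 6.31 FPKM in the control and 3.26 in the DHEA library. The fifth member above the filter, the receptor adaptor gene Grb10, went from 20.8 to 14.6 FPKM, 1.42-fold lower. Peg3 had 1.88 and 1.31 FPKM, Meg3 0.979 and 0.799 FPKM, and Dlk1 29 reads against 1. Igf2, with 1 read in the control and 4 in the DHEA library, was the sole member with a higher value in DHEA there. The intervals cover counting error only, since each tissue and treatment has 1 library. They treat reads as independent, and reads without molecular identifiers are not independent molecules, so the intervals may be too narrow.

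Cell-type markers also differed between the uterus libraries. The summed level of 7 endothelial markers was 229 FPKM in the control and 87.9 in the DHEA library, with 5 of 7 called lower and none at 0. The sum of 7 adipocyte markers was 1249 and 187 FPKM, with 6 called lower and Ucp1 at 0 in the control. The sum of 6 smooth muscle markers was 1540 and 4892 FPKM, with 5 called higher, and that of 7 stromal fibroblast markers 1302 and 2455 FPKM, with 3 called higher; none of these was at 0. Of 6 uterine stroma markers, 3 were called lower and 1 higher (sums 271 and 175 FPKM), and of 6 uterine epithelium markers, 3 were lower and 2 higher (533 and 6125 FPKM, nearly all of the second from Ltf at 5732 FPKM). Mitochondrially encoded genes took 5.79% of reads in the control and 1.45% in the DHEA library. The part of these shifts in the lower levels of Mest, Cdkn1c, Nnat and H19 was not tested.

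In the ovary, 6 members reached a pair mean of 5 FPKM, and 1, Meg3, was called higher; over all 8549 genes 1.98% were higher and 2.63% lower. Meg3 had 3.996 FPKM (1352 reads) in the control and 11.2 FPKM (3032 reads) in the DHEA library, 2.79-fold higher (2.62 to 2.98). H19 and Cdkn1c, each a restraint on growth, lay short of the 2-fold line on the log2(FPKM + 1) scale: H19 had 14.9 and 7.69 FPKM, with a log2 ratio of -0.87, and Cdkn1c 8.73 and 4.44 FPKM, with a log2 ratio of -0.84. Mest had 6.19 and 3.07 FPKM, and its pair mean of 4.63 lay just under the filter. Nnat (20.5 and 29.4 FPKM) and Plagl1 (12.6 and 17.0 FPKM) were higher in the DHEA library by less than 2-fold, and Grb10 (10.9 and 11.3 FPKM) was nearly level.

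The cell markers of the ovary differed in both directions. Of 6 granulosa markers, 3 were called higher (sum 889 and 1353 FPKM), among them Cyp19a1, which encodes aromatase, at 4.95 and 32.4 FPKM. Of 6 theca and luteal markers, 2 were called lower (sum 4139 and 1790 FPKM), Star, the mitochondrial cholesterol carrier, at 171 and 13.1 FPKM and Cyp11a1, the side-chain cleavage enzyme, at 1256 and 183 FPKM. No marker of either list was at 0. Their part in the Meg3 difference was not tested.

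In the brain, 5 members reached a pair mean of 5 FPKM, and 1, again Meg3, was called higher; over all 7596 genes 5.37% were higher and 5.67% lower. Meg3 had 15.6 FPKM (5908 reads) in the control and 77.5 FPKM (23314 reads) in the DHEA library, 4.96-fold higher (4.82 to 5.10). Dlk1, from the same cluster, had 5.86 FPKM (693 reads) in the control and 0.956 FPKM (90 reads) in the DHEA library, 6.13-fold lower, but its pair mean of 3.41 FPKM was under the filter. Peg3 had 27.8 and 18.4 FPKM, Nnat 65.5 and 112 FPKM, Mest 5.29 and 6.05 FPKM, and Grb10 7.38 and 5.6 FPKM. The brain-high members thus pointed in different directions, with Meg3 and Nnat higher and Peg3 and Dlk1 lower in the DHEA library.

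Region and cell markers differed between the brain libraries as well. The 6 neuron markers summed to 768 and 759 FPKM, with 1 called higher and none at 0. The 6 glia markers summed to 1314 and 650 FPKM, with 4 called lower and none at 0. The 7 choroid plexus and meninges markers summed to 1705 and 538 FPKM, with 2 called lower, among them Ttr at 1215 and 210 FPKM. The 7 hypothalamus markers summed to 14.7 and 2.09 FPKM, nearly all of the first from Trh, and Avp and Oxt were at 0 in the DHEA library. Th, which encodes tyrosine hydroxylase and lies near Igf2, stood at 16.5 FPKM (816 reads) in the control and 0.407 FPKM (16 reads) in the DHEA library. The part of the brain that was sampled is not given, and the part of these shifts in the Meg3, Nnat, Peg3 and Dlk1 differences was not tested.

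**Figure D3:**
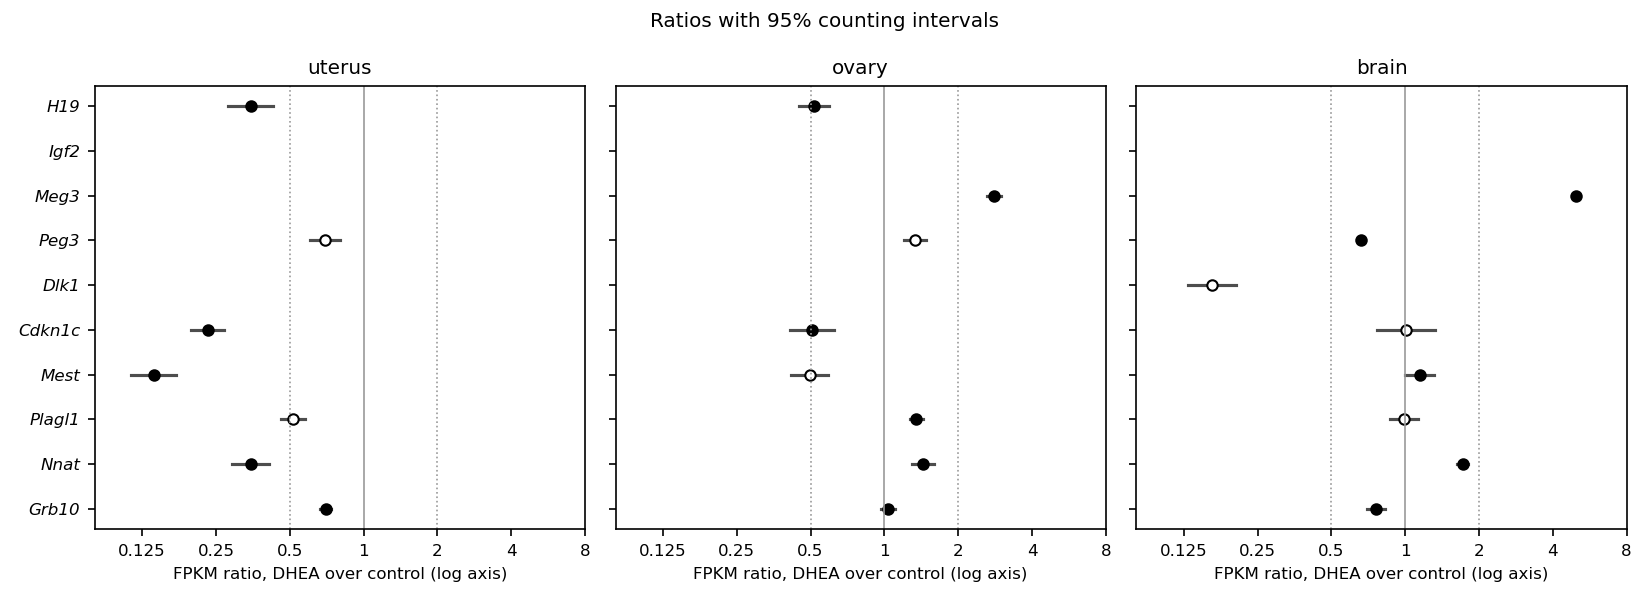
FPKM ratio, DHEA over control, on a log axis, with 95% counting intervals, for members whose pair mean reached 1 FPKM in uterus, ovary and brain. Filled points reach a pair mean of 5 FPKM, open points less, and dotted lines mark 2-fold; Mest, Cdkn1c, Nnat and H19 lie left of the lower line in uterus, and Meg3 lies right of the upper line in ovary and brain.

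Of the other 7 tissues, liver and spleen had 0 members above the filter, so none could be called there. Kidney had 2, thymus 1, lung 4, heart 3 and intestine 1, and none of these was called. Over all genes, 78 of 6985 were higher and 36 lower in kidney, and 91 of 7727 higher and 11 lower in thymus. Lung had 63 of 7913 higher and 69 lower, heart 27 of 5620 higher and 19 lower. Intestine had 680 of 6189 higher and 209 lower. In heart, H19 had 17.4 FPKM (753 reads) in the control and 31.8 FPKM (1216 reads) in the DHEA library, 1.83-fold higher (1.67 to 2.002), opposite in direction to uterus and ovary. The 6 cardiac muscle markers summed to 13002 and 18787 FPKM in these heart libraries, with 2 called higher and none at 0, and their part in the H19 difference was not tested. Thymus H19 had 6.15 and 8.92 FPKM. Cdkn1c in the intestine had 9.24 and 4.49 FPKM, 2.06-fold lower (1.66 to 2.57), and a log2 ratio of -0.90 with the pseudocount of 1 FPKM. It passed 2-fold with a pseudocount of 0.1 FPKM (-1.03) and with ratios centred on the tissue median (-1.01). Lung Cdkn1c had 24.6 and 17.7 FPKM and kidney Cdkn1c 11.2 and 10.6 FPKM.

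Below the filter, liver H19 had 78 reads in the control and 5 in the DHEA library (1.65 and 0.130 FPKM), 12.6-fold lower. Thymus Nnat had 22 and 67 reads (0.615 and 2.06 FPKM), thymus Peg3 24 and 96 reads, and intestine Grb10 90 and 187 reads (0.662 and 1.53 FPKM). In the intestine libraries 6 exocrine pancreas markers summed to 8.55 and 283 FPKM, with all 6 called higher, and 6 smooth muscle markers to 452 and 931 FPKM, with 2 called higher; none of these was at 0. The 5 B cell markers summed to 6.25 and 393 FPKM in the same libraries, with all 5 called higher and 2 at 0 in the control. The part of these shifts in the intestine Cdkn1c and Grb10 values was not tested. The thymus DHEA library also held more adipocyte marker RNA, with a summed level of 99 FPKM in the control and 484 FPKM in the DHEA library, 6 of 7 markers called higher and none at 0. The 3 parathyroid markers summed to 1.87 and 34.8 FPKM there, nearly all of the second from Pth, and the 5 chromaffin markers to 1.88 and 13.5 FPKM, mostly from Chga; each list had 1 marker called higher and none at 0. The part of these shifts in the thymus values was not tested.

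A DHEA difference shared by the tissues was tested with limma over the 10 tissue pairs, with tissue as a block. Of 14833 genes, 0% passed an adjusted p of 0.05 (1106 had an unadjusted p under 0.05), and limma-voom on the reads called 14 genes. None of the 8 members tested passed with either tool. In the fit to log2(FPKM + 1), Cdkn1c had the lowest unadjusted p of the members: it was lower in the DHEA library in 8 of 10 tissues, by 0.49 on the log2(FPKM + 1) scale (SE 0.18, unadjusted p 0.0169, adjusted p 0.663), and by 0.33 without the uterus pair (adjusted p 0.741). Meg3 was 0.40 higher (SE 0.22, adjusted p 0.666), with 5 tissues higher and 5 lower, and 0.20 higher without the brain pair (adjusted p 0.675). With limma-voom Meg3 had the lowest unadjusted p of the members and was 1.18 higher (unadjusted p 0.00111, adjusted p 0.124), and Cdkn1c was 0.68 lower (unadjusted p 0.00781, adjusted p 0.26).

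Neither H19, 0.28 lower (SE 0.19, adjusted p 0.694), nor Mest, 0.25 lower (SE 0.22, adjusted p 0.738), passed. Without the uterus pair Mest was 0.04 lower (adjusted p 0.945) and H19 0.17 lower (adjusted p 0.802), and with a pseudocount of 0.1 FPKM H19 was 0.65 lower (adjusted p 0.668). Peg3, Plagl1, Nnat and Grb10 lay within 0.03 of 0, with standard errors of 0.11, 0.12, 0.18 and 0.11, and the sign of each changed under some of the alternatives. Differences within these standard errors were not detectable over 10 pairs, and larger ones could be missed as well. Cdkn1c, 0.49 lower with a standard error of 0.18, did not pass in the same limma fit (adjusted p 0.663).

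Genes beside the members in the same chromosome regions were compared in the uterus, ovary and brain. Blcap, in whose intron Nnat lies, had 17.6 and 11.6 FPKM in the uterus, 1.51-fold lower where Nnat was 2.88-fold lower, and in brain 39.0 and 32.4 FPKM where Nnat was higher. Copg2, which overlaps Mest at its end and encodes a coatomer subunit, had 13.3 and 10.5 FPKM in the uterus, 1.26-fold lower where Mest was 7.19-fold lower. Kcnq1, a potassium channel gene near Cdkn1c, had 5.24 and 5.08 FPKM in the uterus where Cdkn1c was 4.32-fold lower. In each case the host or neighbour differed less than the member, though reads shared between overlapping genes cannot be told apart.

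In the Dlk1 and Meg3 region, Mirg in brain had 138 reads in the control and 201 in the DHEA library, 1.83-fold higher where Meg3 was 4.96-fold higher. In the ovary Mirg had 39 and 60 reads, 1.92-fold higher, beside a 2.79-fold difference for Meg3. Dio3, which encodes the deiodinase that inactivates thyroid hormone and lies at the far end of that region, had 4 reads in the control and 382 in the DHEA uterus library (0.123 and 9.19 FPKM), 74.8-fold higher (29.0 to 276), with a pair mean of 4.66 FPKM just under the filter. Neither Dlk1 nor Meg3 was higher in that library. In brain Dio3 had 4 and 46 reads, 14.4-fold higher (5.27 to 55.3), and in ovary 96 and 148 reads, 1.92-fold higher (1.48 to 2.51). Both of these pairs lay under the filter, in tissues where Meg3 was called higher. Rtl1, also under the filter, had 38 and 68 reads in brain and 3 and 10 in ovary. Usp29, beside Peg3, had 1.92 and 1.48 FPKM in brain, where Peg3 was 1.52-fold lower.

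**Figure D4:**
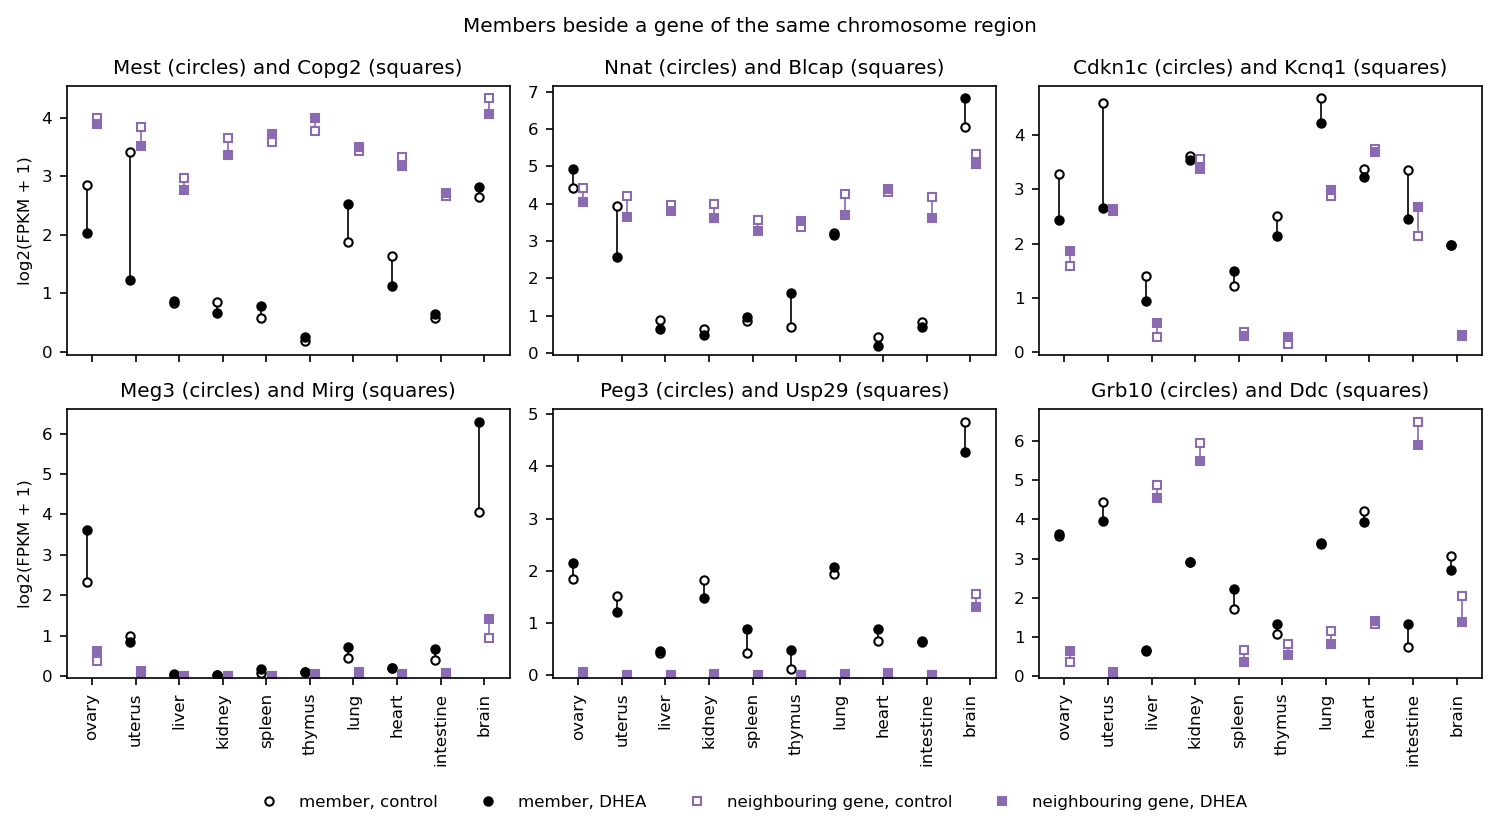
Level of 6 members (circles) and of a gene of the same chromosome region (squares), as log2(FPKM + 1), in 10 tissues; open symbols are the control and filled symbols the DHEA library. In uterus Mest, Nnat and Cdkn1c differ by more than Copg2, Blcap and Kcnq1, and in brain Meg3 is the gene with the widest gap.

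A wider list of imprinted genes was examined, of which 55 of 60 were in the table. It gave 161 combinations above the filter, with 3 higher and 3 lower in DHEA, 1.86% each, against 3.75% and 2.79% of all combinations. In the uterus, Peg10, a retrotransposon-derived gene, had 1.90 and 11.8 FPKM, 6.21-fold higher, and Slc22a3, an organic cation transporter gene, had 9.48 and 2.15 FPKM, 4.40-fold lower. Of the 18 list genes above the filter in the uterus, 1 was higher and 1 lower, with a median log2 ratio of 0.04. In the ovary Asb4, which encodes a ubiquitin ligase adaptor, had 2.67 and 25.8 FPKM, 9.66-fold higher. Cdh15, a cadherin gene, had 11.3 and 0.444 FPKM in brain. Dcn, which encodes the matrix proteoglycan decorin, had 5.68 and 17.0 FPKM in thymus and 17.4 and 6.40 FPKM in spleen.

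The IGF axis beyond Igf2 and Grb10 was represented by 21 ligand, receptor, binding protein and adaptor genes. It gave 98 combinations above the filter, of which 10 (10.2%) were higher and 5 (5.1%) lower, against 3.75% and 2.79% of all combinations, and its median log2 ratio in the uterus was 0.01. In the uterus, Igfbp3 (137 and 32.2 FPKM) and Igfbp4 (225 and 58.4 FPKM), both of which bind IGFs and limit their access to receptors, were 4.27-fold and 3.86-fold lower. Igfbp2, another binding protein, went from 2.13 to 30.9 FPKM, and Stc2, which inhibits the protease that cleaves Igfbp4, from 4.25 to 22.4 FPKM. In the ovary Igfbp3 had 38.5 and 16.3 FPKM. In brain Igfbp2 was lower (36.5 and 13.01 FPKM) and Igfbp4 higher (7.07 and 16.6 FPKM).

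Other cyclin-dependent kinase inhibitors did not share one direction with Cdkn1c. Of 39 combinations for 6 genes of the CIP/KIP and INK4 families, 3 were higher and 3 lower, 7.69% each against 3.75% and 2.79% of all combinations, with a median log2 ratio of -0.37 in the uterus and -0.66 in the ovary. Cdkn1a, which encodes p21, had 4.74 and 12.4 FPKM in the uterus, higher where Cdkn1c was lower, and 54.6 and 9.75 FPKM in the ovary. Cdkn2b, which encodes p15, had 20.5 and 1.77 FPKM in the ovary, and Cdkn1b, which encodes p27, 37.3 and 18.1 FPKM in brain.

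The 10 proliferation genes gave 53 combinations, with 16 (30.2%) higher and 0 lower, against 3.75% and 2.79% of all combinations. In the intestine 8 of 8 above the filter were higher, where 680 of 6189 genes were, and in the spleen 4 of 10, where 452 of 7882 genes were. The 5 erythroid markers summed to 1703 and 12763 FPKM in the spleen libraries, with all 5 called higher. The part of this shift, and of the B cell shift in the intestine, in these counts was not tested. In the uterus 4 of 8 were higher, where 7.85% of all genes were: Mcm5 (4.51 and 20.8 FPKM) and Mcm2 (4.54 and 12.4 FPKM) of the replicative helicase, Top2a, a topoisomerase (6.81 and 18.7 FPKM), and Pcna, the replication clamp (28.3 and 62.8 FPKM). The median log2 ratio of those 8 was 1.05, and that of all genes in the uterus -0.12. In the ovary and in brain none of this list was called. Cdkn1c, the kinase inhibitor among the members, was lower in the same uterus library in which these 4 were higher. It had 9.24 FPKM in the control and 4.49 in the DHEA library in intestine, 1.33 and 1.80 in spleen, and 8.73 and 4.44 in ovary. A link between Cdkn1c and the proliferation genes was not tested, nor was the part of the uterus marker shifts given above.

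The authors' deposited table of log2 fold values lists 8 of the 10 members and leaves out Igf2 and Dlk1. In the authors' deposited table the uterus values are -2.61 for Mest, -1.87 for Cdkn1c, -1.29 for Nnat and -1.29 for H19. The authors' deposited table gives Meg3 2.34 in brain and 1.51 in ovary. These values are not ratios of (FPKM + 1), on which Mest in uterus is -2.18. The authors' deposited table also passes 1 or -1 in pairs under the 5 FPKM filter. These are H19 in brain (-2.45), Meg3 in spleen (1.24) and lung (1.11), and Peg3 in thymus (2.13) and spleen (1.28). Others are Nnat in thymus (1.73) and heart (-1.20), Grb10 in intestine (1.29), Plagl1 in heart (1.16) and Mest in lung (1.06). In the same deposited table of the authors, liver H19 is at -3.65, a value that rests on the 78 and 5 reads given above.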

How the data were processed

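Total RNA of homogenised tissue was sequenced on 20 libraries, 1 per tissue and treatment. The submitters' processing notes name HISAT2 2.0.5 and the builds hg38 and mm39; the counting, annotation and strand settings are not given there. The authors deposited FPKM values for 24826 rows and, separately, log2 fold values of DHEA over control. FPKM values were whole multiples of 1 read for all 24826 genes (100%, relative tolerance 1e-11), which gave reads and depth; the mouse genome reference used for names and promoters is GRCm38. Symbols occurring more than once (28 symbols, 57 rows) were left out.

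Ratios used a pseudocount of 1 FPKM, with a call at 2-fold and a pair mean of at least 5 FPKM. Intervals are exact binomial at 95% and cover counting error only. Tests used limma 3.58.1 in R 4.3.3 (lmFit, eBayes with trend, two-sided, Benjamini-Hochberg over genes averaging 1 FPKM or more); scripts, checked on simulated data, ran in Python 3.11.15. P-values of the shared test measure the spread between tissue pairs, not between animals. Alternatives were another pseudocount, other filters, 3 rescalings, limma-voom on reads and leaving out each tissue pair.

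All members were named. Of the other lists, genes called in a tissue were named, at most 4 per tissue by absolute log2 ratio, for pathway lists where a member was called; marker genes and neighbours were singled out after their values were seen. The members and lists were chosen with earlier results of these data known.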

Additional observations from a re-analysis of the deposited data

Results flagged for a closer look

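H19 differed in direction between tissues. Its log2 ratio of (FPKM + 1), DHEA over control, was -0.87 in ovary and -1.24 in uterus and 0.83 in heart, and the counting interval of the heart ratio lay on the other side of no difference from those of ovary and uterus. Nnat likewise had a log2 ratio of -1.36 in uterus and 0.77 in brain. With 1 library per tissue and treatment, these differences between tissues were not tested, and each rests on a single pair of libraries.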

How the results depend on the processing

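Counts of member and tissue combinations depended on single tissues: without the brain pair or without the ovary pair, alternatives chosen after seeing the data, 1 combination was higher in DHEA in place of 2, and without the uterus pair 0 were lower in place of 4. Under the other pseudocount, filters and rescalings the count higher was 2 throughout and the count lower ran from 3 to 6. The shared DHEA test called 0 members under every alternative run, leaving out each tissue pair included (0 to 0). The test between tissues called all 8 members, or all 10 with no filter on low values. The count of members whose highest tissue stood above the next was 5, and 4 under the other pseudocount, sum scaling and limma-voom, where H19 was lost; the cause was not tested. Leaving out each tissue pair, an alternative chosen after seeing the data, gave 3 to 6, with 3 without the brain pair, which is the highest tissue of Peg3, and 6 without the uterus pair; without the ovary pair Plagl1 was the call lost. Of 108 alternative values for the 27 pair ratios, 12 moved by more than their counting interval with the sign kept, and 4 changed sign, all of Nnat in lung or Grb10 in kidney, whose ratios were within 0.05 of 0. Of 120 alternative values for the 8 shared DHEA differences, 14 changed sign, all of Peg3, Plagl1, Nnat or Grb10; none of the 8 passed under any of them. Scaling to the same FPKM sum shifted the median log2 ratio of all genes by 0.22 in uterus and 0.21 in lung, centring by 0.12 in uterus and -0.11 in intestine, and rescaling without the most abundant genes by -0.11 in heart. The tissue was the block of the shared DHEA test, and the labels carry no replicate numbers. Depth limits Igf2 and Dlk1, whose ratios outside brain and heart rest on 40 reads or fewer per library.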
